A study of Mus musculus with 4 samples.

Results

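The 8 genes described here are *Cx3cr1*, *Ace*, *Treml4*, *Adgre4*, *Hpgd*, *Nxpe4*, *Ceacam1* and *Spn*, which mark non-classical monocytes, out of 32285 genes counted in single cells from mouse melanoma. They were chosen from these same data, by their levels, their shares of positive cells and their detection together across cell classes, and because they part myeloid cells without tumor-derived fluorescence from those with it. All 8 symbols were found once each. Their levels in the myeloid cells of the 2 sorted libraries are therefore given as a description, with no test.

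The cells came from B16 ZsGreen+ tumors, a clone of B16-F10 melanoma cells that makes the green protein ZsGreen (ZsG) in its cytoplasm when doxycycline is given. The tumors were grown under the skin of wild-type C57BL/6 mice for 8 days, and the mice drank doxycycline before harvest, so both groups share tumor line, clone, strain, age of tumor and drug. Leukocytes carrying CD45 were parted by the ZsG they had taken up, and the ZsG-negative and the ZsG-positive gate were each 1 library. The sources used here give neither how many animals were pooled nor their age. The ZsG-positive gate took bright cells, so ZsG-negative lymphocytes can include dimly fluorescent ones. The 95% intervals given throughout are for counting error only. Those of levels and ratios leave out the spread between cells, so they can be too narrow. With 1 library a gate the spread between libraries cannot be measured, and gate and library cannot be told apart.

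Monocytes leave the bone marrow as classical cells, which carry Ly6C and CCR2 and enter inflamed tissue, where many become macrophages. In mice some convert in the blood to non-classical cells, which carry little Ly6C, patrol the vessel wall and depend on the nuclear receptor NR4A1 and on the fractalkine receptor CX3CR1 for their survival. CX3CR1 is also found on tissue macrophages and on some cytotoxic T cells, so its transcript alone does not name a cell. Of the other 7 genes, *Ace* encodes angiotensin-converting enzyme, a peptidase of the cell surface. *Treml4* encodes a receptor of the TREM family, *Adgre4* an adhesion G protein-coupled receptor, and *Ceacam1* an adhesion receptor with an inhibitory tail. *Hpgd* encodes 15-hydroxyprostaglandin dehydrogenase, which inactivates prostaglandins, and *Spn* encodes CD43, a sialomucin of leukocytes. *Nxpe4* belongs to a family of neurexophilin-like proteins whose role in monocytes is not settled.

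In GRCm38 *Cx3cr1* (ENSMUSG00000052336) lies at chr9:119901616-120069879 on the minus strand and *Nxpe4* (ENSMUSG00000044229) at chr9:48162023-48400025 on the plus strand. *Ace* (ENSMUSG00000020681) lies at chr11:105967945-105989964, *Treml4* (ENSMUSG00000051682) at chr17:48264295-48275360, *Adgre4* (ENSMUSG00000032915) at chr17:55749984-55853662 and *Hpgd* (ENSMUSG00000031613) at chr8:56294585-56321043, all on the plus strand. *Ceacam1* (ENSMUSG00000074272) at chr7:25461707-25477603 and *Spn* (ENSMUSG00000051457) at chr7:127132232-127137823 are on the minus strand. All 8 are protein-coding. The annotated span of *Cx3cr1* overlaps other genes on both strands, and that of *Nxpe4* overlaps the protein-coding *Nxpe2* on the opposite strand. Those of *Ace* and *Ceacam1* have an antisense transcript, Gm11651 and 4732471J01Rik. *Adgre4* overlaps pseudogenes on the opposite strand and *Hpgd* overlaps Gm45540 on the same strand, while *Treml4* and *Spn* overlap no other gene.

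The promoters of *Cx3cr1* and of *Ace*, *Treml4* and *Adgre4*, the 3 genes whose positive cells most often held 2 or more of the others in the ZsG-negative library, are shown because these genes differ in how far they go together. They run from 250 bases before to 50 bases after the start, 5′ to 3′ on the gene's strand, from RefSeq on GRCm38.p6. Capitals mark letters that match any of the searched motifs, on either strand:
Cx3cr1, chr9:120068247-120068546, minus strand: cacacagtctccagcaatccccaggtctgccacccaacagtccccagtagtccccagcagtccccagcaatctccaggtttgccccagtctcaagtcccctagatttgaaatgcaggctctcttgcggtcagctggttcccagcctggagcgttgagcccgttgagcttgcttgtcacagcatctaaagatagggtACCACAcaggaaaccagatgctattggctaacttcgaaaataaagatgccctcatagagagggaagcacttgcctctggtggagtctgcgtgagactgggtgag
Ace, chr11:105967698-105967997, plus strand: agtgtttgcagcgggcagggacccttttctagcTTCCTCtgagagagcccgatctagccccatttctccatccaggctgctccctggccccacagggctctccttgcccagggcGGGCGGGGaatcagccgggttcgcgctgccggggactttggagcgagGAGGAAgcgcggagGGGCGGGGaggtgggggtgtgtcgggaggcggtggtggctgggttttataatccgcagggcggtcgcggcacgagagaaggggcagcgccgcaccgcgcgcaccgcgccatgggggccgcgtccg
Treml4, chr17:48264045-48264344, plus strand: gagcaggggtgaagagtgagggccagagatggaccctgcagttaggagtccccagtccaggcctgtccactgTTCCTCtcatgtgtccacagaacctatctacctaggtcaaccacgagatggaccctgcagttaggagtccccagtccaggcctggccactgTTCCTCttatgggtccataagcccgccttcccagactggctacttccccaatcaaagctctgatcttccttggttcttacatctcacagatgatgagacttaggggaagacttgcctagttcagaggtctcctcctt
Adgre4, chr17:55749734-55750033, plus strand: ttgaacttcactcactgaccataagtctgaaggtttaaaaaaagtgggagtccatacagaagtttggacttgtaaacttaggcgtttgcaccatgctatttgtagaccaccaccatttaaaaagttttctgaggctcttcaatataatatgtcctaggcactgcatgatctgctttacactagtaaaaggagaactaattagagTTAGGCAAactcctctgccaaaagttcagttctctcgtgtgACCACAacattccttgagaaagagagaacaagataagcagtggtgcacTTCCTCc
Promoters were found for 8 of 8 genes, and *Ace* had a second one. The letters GAGGAA, at the core of many ETS family sites, stood in the promoters of 5 of the 8 genes, against 28.3% of 32851 promoters of the same length. CCNCNCCC, as bound by KLF factors, stood in 4, against 49.5%. TGTGGT, the RUNX core, stood in the promoters of *Cx3cr1* and *Adgre4*, against 16.8%. TTGCNNAA, as bound by C/EBP factors, stood only in *Adgre4*, against 10.8%. AAAGGTCA, which NR4A1 can bind as a monomer, was in none of the 8, against 1.51% of promoters, and the IRF motif was in none, against 3.44%. The motifs searched did not overlap each other in these windows. A match is a run of letters and not a bound site, and no match says nothing of the factor.

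After cells with fewer than 1000 or at least 6000 genes or at least 10% mitochondrial UMIs were left out, 4699 ZsG-negative and 4123 ZsG-positive cells remained, from 47537541 and 56510578 UMIs in all. A UMI (unique molecular identifier) counts 1 captured transcript molecule. Of the cell barcodes, 6 occurred in both libraries. Cells were put in classes by marker UMIs, and the myeloid class, called the Lyz2 class, needs at least 5 UMIs of *Lyz2*, lysozyme of monocytes and macrophages, and no marker set of another lineage. It held 246 ZsG-negative cells (median 8243.5 UMIs) and 2942 ZsG-positive cells (median 9771.5). Of its markers, *Csf1r* was in 91.5% and 87.0% and *Itgam* in 80.1% and 82.4% of ZsG-negative and ZsG-positive cells. Others were uneven between the gates, so the class was not alike in both. In the same order, *Fcgr1* was in 57.7% and 96.3%, *Adgre1* in 44.7% and 64.6%, *Ms4a7* in 7.72% and 40.8% and *C1qa* in 2.44% and 68.9%. *Ncr1* of NK cells was in 0.407% and 0.204%. Near the limit, with fewer than 10 *Lyz2* UMIs, were 10 and 129 cells.

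All 8 genes were higher in ZsG-negative than in ZsG-positive Lyz2-class cells, from 7.51-fold for *Cx3cr1* to 54.98-fold for *Hpgd*, in CPM, the UMIs of a gene out of 1000000 UMIs of the class. Of 11489 genes with at least 20 UMIs in these cells, 2.79% were at least 4-fold higher in ZsG-negative cells and 5.75% at least 4-fold higher in ZsG-positive cells. All 8 were at least 4-fold higher in ZsG-negative cells and 5 of them at least 16-fold, among 29 genes so far apart, but the choice of the genes fixes this count. The median log2 ratio, ZsG-positive over ZsG-negative, was -4.34 over the 8 genes and 0.02 over all 11489.

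**Figure D1:**
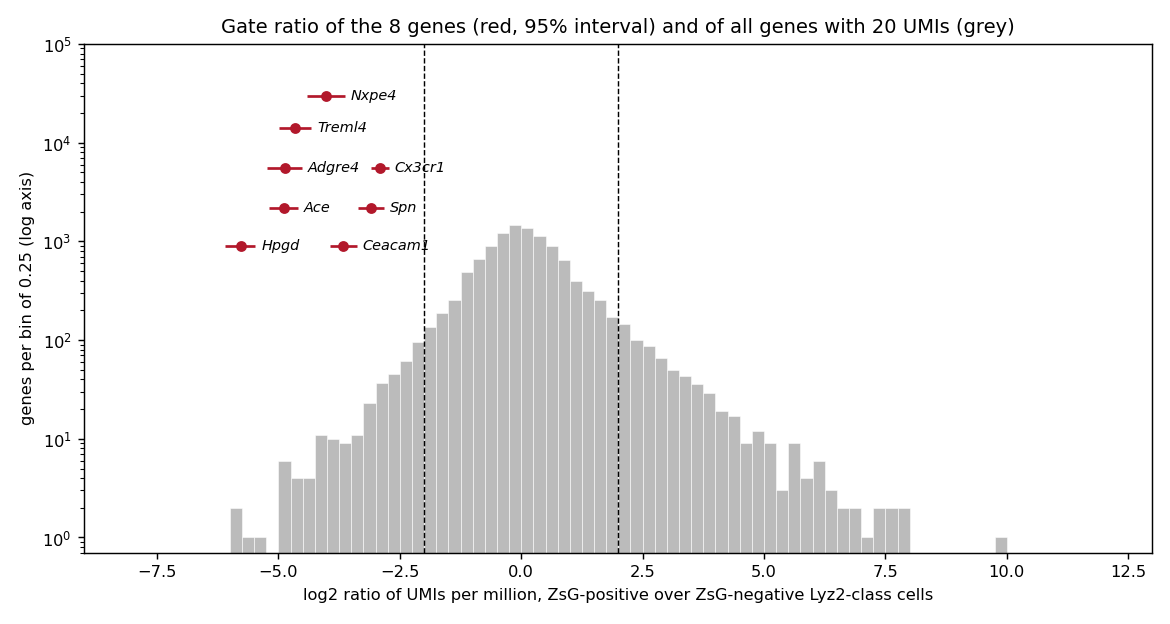
The log2 ratio of CPM, ZsG-positive over ZsG-negative Lyz2-class cells, on the x axis, with grey bars for the number of genes in each bin among 11489 (log axis) and red points for the 8 genes with 95% intervals, placed at arbitrary heights. Dashed lines mark 4-fold, and all 8 points lie left of the left line, from -2.91 for Cx3cr1 to -5.78 for Hpgd.

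*Cx3cr1*, the receptor for fractalkine, had a level of 179 CPM (161 to 198) in the ZsG-negative Lyz2 class and of 23.8 CPM (22.2 to 25.5) in the ZsG-positive one. A UMI was found in 58.5% and 9.99% of cells. The log2 ratio was -2.91 (-3.09 to -2.73), the smallest of the 8. Among all genes *Cx3cr1* had rank 92 from the lowest ratio. In cells with marks of more than 1 lineage, 587 ZsG-negative and 290 ZsG-positive, it was higher in the ZsG-positive library (0.64, 0.28 to 0.99), and with these cells added to the Lyz2 class its ratio was -1.22.

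*Hpgd* was further apart than any other of the 8. It was at 180 CPM in the ZsG-negative and 3.27 CPM in the ZsG-positive library (log2 ratio -5.78, interval -6.10 to -5.47). It was found in 42.7% and 2.31% of cells. Only *S1pr5*, a sphingosine-1-phosphate receptor that guides cells out of tissue, had a lower ratio among all genes, from 32 and 9 UMIs.

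*Ace*, *Treml4* and *Adgre4* stood close together. *Ace* was at 121 and 4.08 CPM, a log2 ratio of -4.89 (-5.20 to -4.59). *Treml4* was at 91.1 and 3.62 CPM, a ratio of -4.65 (-4.99 to -4.32). *Adgre4* was at 83.9 and 2.87 CPM, a ratio of -4.87 (-5.24 to -4.51). The 3 intervals overlap one another. Between 32.1% and 32.9% of ZsG-negative cells held each of them, and between 2.48% and 3.40% of ZsG-positive cells.

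*Nxpe4*, *Ceacam1* and *Spn* filled the range between these and *Cx3cr1*. *Nxpe4* was at 51.3 and 3.16 CPM, a log2 ratio of -4.02 (-4.42 to -3.63). *Ceacam1* was at 93.5 and 7.35 CPM, a ratio of -3.67 (-3.94 to -3.39). *Spn* was at 88.7 and 10.4 CPM, a ratio of -3.09 (-3.35 to -2.83), whose interval overlaps that of *Cx3cr1*.

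The UMIs of these genes were spread over cells in different ways. In ZsG-negative cells no cell held more than 14 UMIs of any of the 8. In ZsG-positive cells the other 7 genes never passed 7 UMIs in a cell, and between 71.6% (*Ace*) and 83.7% (*Spn*) of positive cells held 1 UMI. *Cx3cr1* differed, with 48 UMIs in one ZsG-positive cell and 26 in the next. A group of 42 ZsG-positive cells with at least 5 *Cx3cr1* UMIs held 385 of the 823 UMIs, 46.8%. Without these cells the log2 ratio of *Cx3cr1* would have been -3.79.

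Those 42 cells held no UMI of *Ace*, *Adgre4* or *Hpgd*, 1 of *Nxpe4* and 2 of *Ceacam1*. ZsG-positive cells without *Cx3cr1* held these 5 genes at 3.84, 2.67, 2.80, 3.04 and 7.11 CPM. A count of 0 in the 42 cells allows up to 3 UMIs, or 3.94 CPM, so a difference in *Ace*, *Adgre4* or *Hpgd* was not detectable at this depth. *Treml4* was at 5.25 CPM from 4 UMIs and *Spn* at 15.8 CPM from 12, against 3.10 and 9.61 CPM in ZsG-positive cells without *Cx3cr1*. Their genes furthest above ZsG-positive cells without *Cx3cr1* were led by *Pbk*, *Prc1*, *Gas6*, *Hmgb3*, *Plk1*, *Birc5* and *Ccnb1*, most of them genes of mitosis, with a median log2 difference of 3.45 over the 15 furthest. The complement genes *C1qa*, *C1qb* and *C1qc* together were at 10396 CPM in them and 5374 CPM in cells without *Cx3cr1*. These cells were deeper, with a median of 17185 UMIs against 9497. Among cells of 10863 to 24592 UMIs, 20 with and 955 without, the median over the same 15 genes was 3.24. These 15 genes were named after their values were seen.

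Most ZsG-positive Lyz2-class cells held UMIs of C1q, a product of macrophages, and most ZsG-negative ones did not. *C1qa* was also found in 39.9% of ZsG-positive T cells and 34.0% of ZsG-positive NK cells. In the ZsG-negative library these shares were 1.40% and 0.683%. Its level was at most 99.3 CPM in these lymphocytes, against 2019 CPM in the ZsG-positive Lyz2 class. A few C1q UMIs in a ZsG-positive cell thus do not by themselves name a macrophage, and their origin was not tested. The Lyz2-class cells were thinned to 3000 UMIs each and split by their UMIs of *C1qa*, *C1qb* and *C1qc*. The levels were taken from all UMIs of the cells. No C1q UMI was found in 230 of 244 ZsG-negative cells and 697 of 2916 ZsG-positive cells. Within these cells all 8 genes were still lower in the ZsG-positive library. *Cx3cr1* was at 185 and 12.9 CPM, a log2 ratio of -3.85 (-4.21 to -3.50), further apart than in all cells. *Ace* was at 121 and 8.31 CPM (-3.86, -4.32 to -3.43), *Treml4* at 92.4 and 7.06 (-3.71, -4.22 to -3.23) and *Adgre4* at 83.3 and 6.12 (-3.77, -4.31 to -3.26). *Hpgd* had a ratio of -4.55 (-5.01 to -4.12), *Nxpe4* of -3.52, *Spn* of -3.38 and *Ceacam1* of -3.04. Apart from *Cx3cr1* and *Spn*, these ratios were nearer to 0 than in the whole class.

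Along C1q within the ZsG-positive library, 6 of the other genes were lower where C1q was higher, and *Cx3cr1* was not. From cells without C1q to the 1706 cells with at least 3 C1q UMIs, *Cx3cr1* went from 12.9 to 26.3 CPM, a log2 difference of 1.03 (0.70 to 1.38). The 42 cells rich in *Cx3cr1* carried much of this: without them it went from 10.4 to 14.0 CPM, a difference of 0.43 (0.04 to 0.83). *Ace* went from 8.31 to 1.94 CPM (-2.10, -2.70 to -1.51). *Treml4* (-1.81), *Adgre4* (-2.38) and *Hpgd* (-2.33) were also lower, with intervals below -1. *Ceacam1* (-1.05) and *Nxpe4* (-0.90) had smaller differences with intervals below 0, and *Spn* was at 8.94 and 10.2 CPM (0.19, -0.23 to 0.63). Only 7 ZsG-negative cells had at least 3 C1q UMIs, and no *Cx3cr1* UMI was seen in them.

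**Figure D2:**
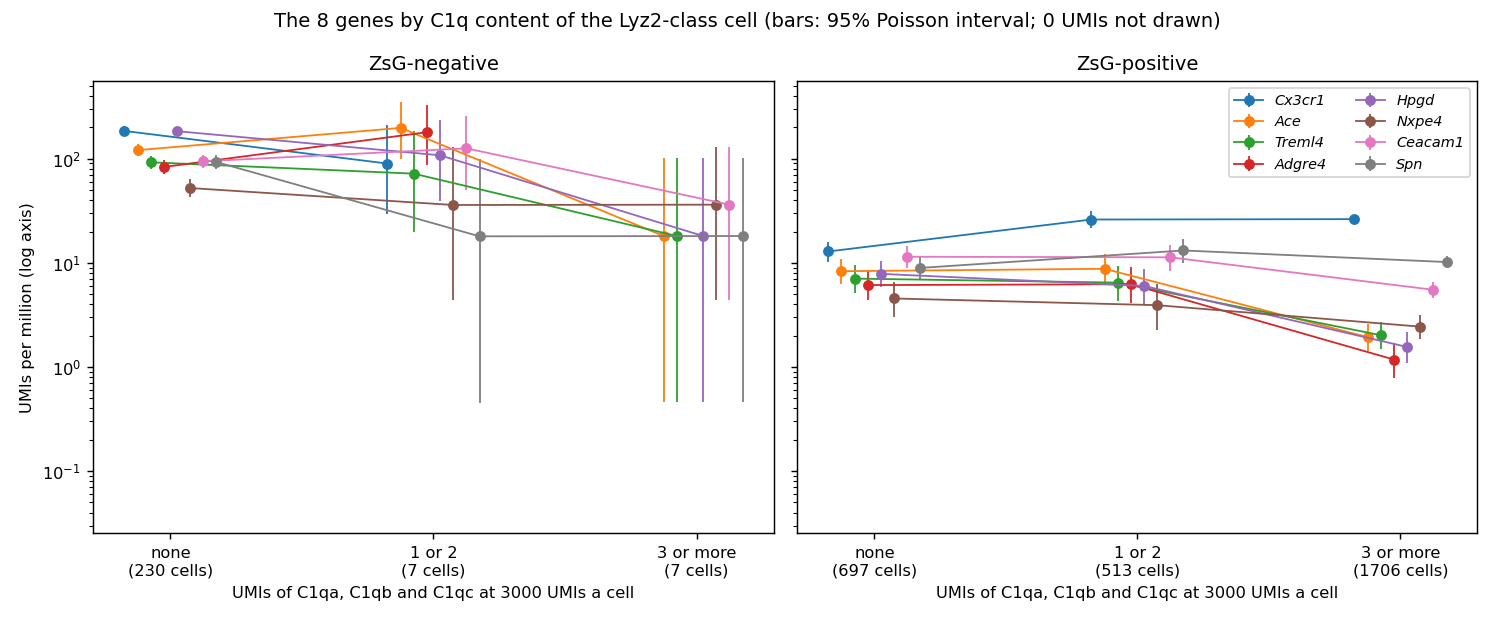
CPM of each of the 8 genes (y, log axis) in Lyz2-class cells with no, 1 or 2, or at least 3 UMIs of the C1q genes at 3000 UMIs a cell (x), for the ZsG-negative library on the left and the ZsG-positive on the right, with 95% Poisson intervals and values of 0 left out. In ZsG-positive cells Cx3cr1 goes from 12.9 without C1q to 26.1 and 26.3, with the 42 cells rich in it included, while Ace, Treml4, Adgre4 and Hpgd reach between 1.18 and 2.02 at 3 or more C1q UMIs.

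Cells that held any of the 8 genes more often held several in the ZsG-negative than in the ZsG-positive library. Exactly 1 was held by 76 of 187 such ZsG-negative cells and by 316 of 381 such ZsG-positive cells. At 3000 UMIs a cell, at least 1 of the 8 was found in 76.6% (70.8 to 81.8) of 244 ZsG-negative and 13.1% of 2916 ZsG-positive cells. At least 3 were found in 73 ZsG-negative cells, 29.9% (24.2 to 36.1), and in 21 ZsG-positive cells, 0.720% (0.446 to 1.10). Without thinning the same shares were 52.0% and 2.21%, and 9 ZsG-negative cells held all 8 while no ZsG-positive cell did.

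**Figure D3:**
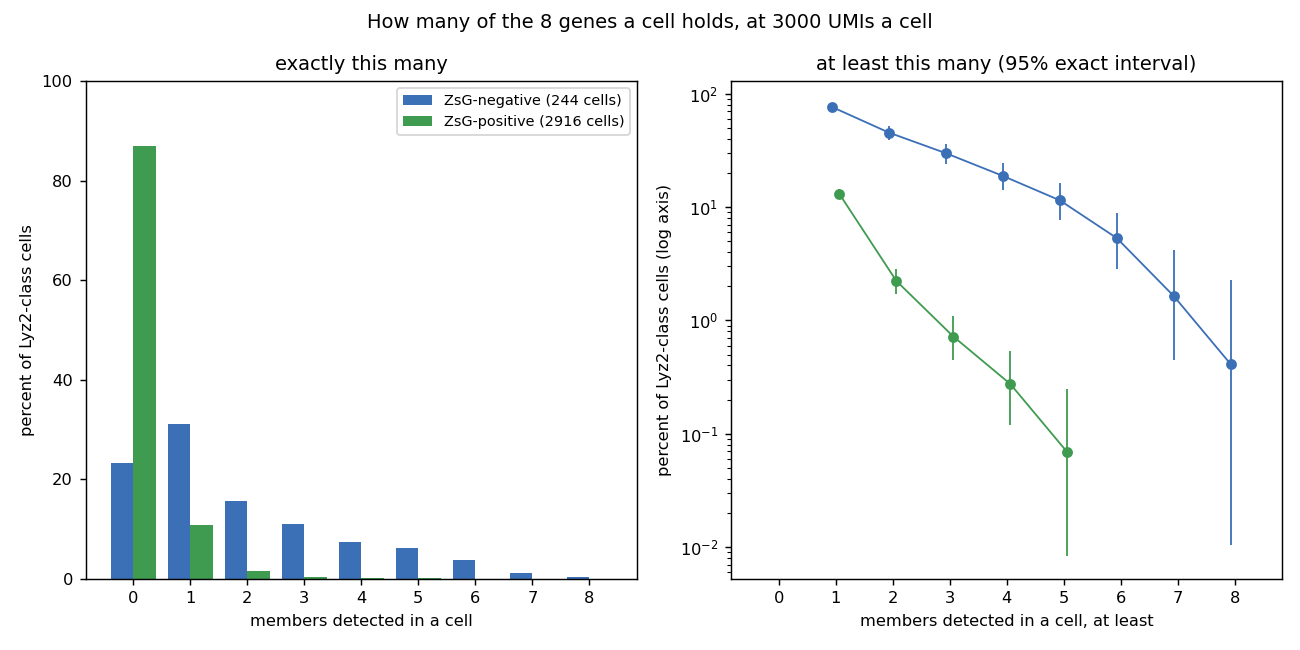
The percent of Lyz2-class cells, thinned to 3000 UMIs, that hold exactly (left) or at least (right, log axis, 95% exact binomial interval) a given number of the 8 genes (x), in blue for ZsG-negative and green for ZsG-positive cells. No gene is found in 57 of 244 ZsG-negative and 2535 of 2916 ZsG-positive cells, and the shares with at least 3 are 29.9% and 0.720%.

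Of the 28 pairs of genes, 26 were found together in more ZsG-negative cells than the product of their shares gives, at a median of 1.60 times and up to 2.82 times for *Ace* with *Adgre4*, in 31 cells. The pairs at the bottom were *Hpgd* with *Spn* (0.82 times, 13 cells) and with *Ceacam1* (0.97 times, 19 cells). In ZsG-positive cells 27 of 28 pairs lay above the product, at a median of 4.55 times, from 0 to 10 cells each, but the product itself was 0.34 to 4.12 cells, and under 1 cell for 14 pairs. The highest was *Treml4* with *Adgre4*, at 19.3 times from 7 cells, and *Cx3cr1* with *Nxpe4* was found in no cell. These ratios are descriptions, since the cells of a panel share 1 library.

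**Figure D4:**
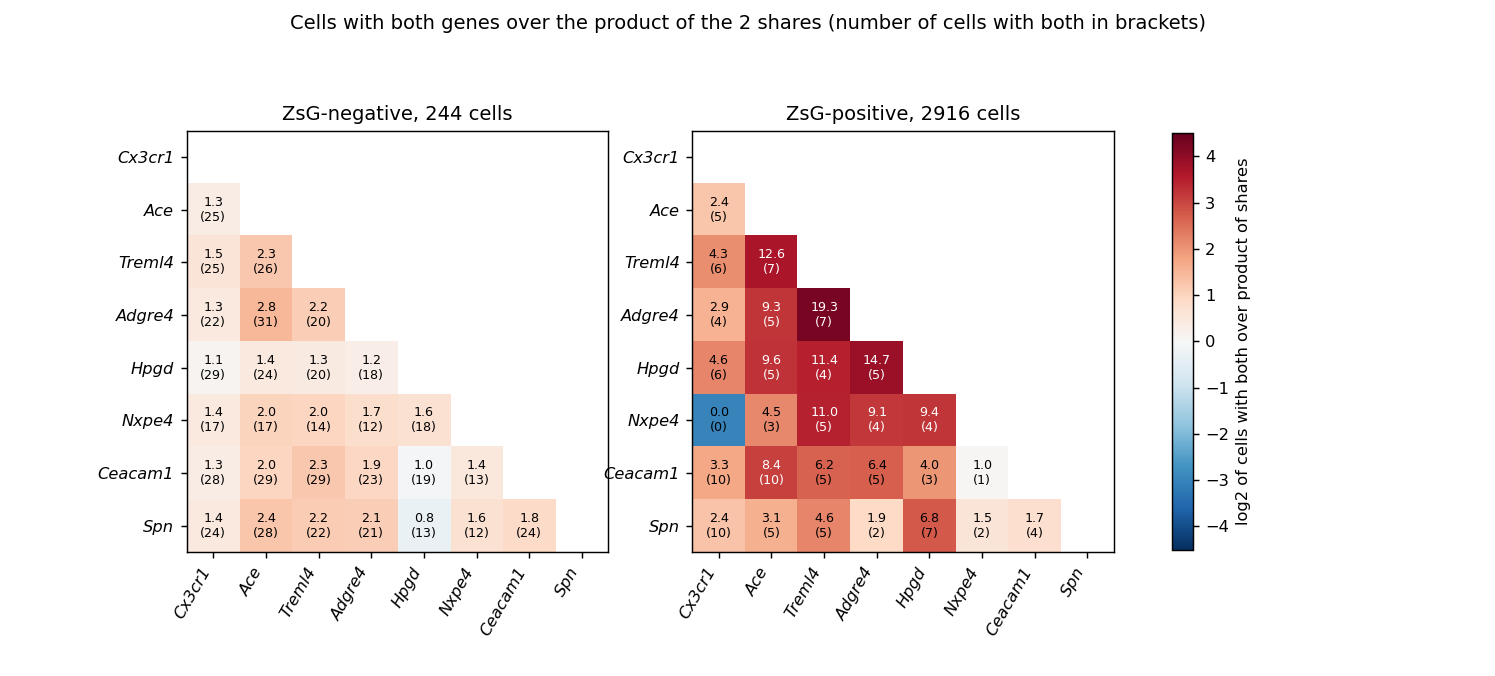
Each square gives the number of Lyz2-class cells, at 3000 UMIs a cell, that hold both genes divided by the number that the product of their shares gives, with the cells that hold both in brackets and the log2 of the ratio as color, for ZsG-negative (left) and ZsG-positive cells (right). A ratio of 0 is drawn at -3. The squares among Ace, Treml4 and Adgre4 are at 2.16 to 2.82 on the left and at 9.30 to 19.3 on the right.

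In ZsG-negative cells *Cx3cr1* and *Hpgd* often occurred outside the group, and in ZsG-positive cells this was not particular to *Cx3cr1*. In ZsG-negative cells 87.5% (74.8 to 95.3) of *Treml4*-positive and 84.2% (72.1 to 92.5) of *Ace*-positive cells held at least 2 of the other genes. The same share was 49.4% (38.4 to 60.5) for *Cx3cr1* and 47.4% (35.8 to 59.2) for *Hpgd*. In ZsG-positive cells it was 39.4% for *Treml4*, 31.2% for *Adgre4*, 25.8% for *Hpgd* and 22.4% for *Ace*. It was 14.1% for *Ceacam1*, 10% for *Nxpe4*, 8.06% for *Cx3cr1* and 7.22% for *Spn*. Among cells without *Cx3cr1*, 31.4% of ZsG-negative and 1.40% of ZsG-positive ones held at least 2 of the other 7. Of the *Cx3cr1* UMIs at this depth, 23.9% lay in ZsG-negative cells and 85.5% in ZsG-positive cells with none of the other 7 genes. Such cells were 81 of 244 ZsG-negative and 2633 of 2916 ZsG-positive cells, and neither UMI share exceeds the share of cells. For *Hpgd* these UMI shares were 27.7% and 35.4%. In ZsG-positive cells the share was 74.5% for *Spn*, 65.1% for *Nxpe4* and 63.6% for *Ceacam1*. It was 55% for *Ace*, 47.5% for *Treml4* and 43.6% for *Adgre4*.

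The gate ratio was also taken among cells grouped by how many of the other 7 genes they held, on the UMIs left after thinning to 3000 a cell. The group with at least 2 is open at the top, so its cells are not alike between the gates. Of cells with at least 3 of the 8, 46 of 73 ZsG-negative and 8 of 21 ZsG-positive ones held at least 4. In cells with at least 2 of the others, 92 ZsG-negative and 49 ZsG-positive, *Cx3cr1* was at 279 and 88.4 CPM, a log2 ratio of -1.66 (-2.63 to -0.80). In cells with none of the others, 81 and 2633, it was at 139.9 and 23.9 CPM, a ratio of -2.55 (-3.08 to -1.98). These 2 intervals overlap. *Hpgd* was at 272 and 67.9 CPM with at least 2 others (interval of the ratio -3.07 to -1.08) and at 173 and 2.22 CPM with none (-6.28, -7.19 to -5.43), and these intervals do not overlap.

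The cells with at least 3 of the 8 genes also held more of other non-classical genes than cells with none, in both libraries. The summed level of 25 other genes of non-classical monocytes was 13142 CPM in the 73 ZsG-negative and 7587 CPM in the 21 ZsG-positive cells. In cells with none of the 8 it was 5035 and 3581 CPM. The list and the 8 genes were chosen with earlier results of these data known, so this is a description. A sum weighs abundant genes most, such as *Cebpb*, at 2496 and 943 CPM in the whole ZsG-negative and ZsG-positive Lyz2 class. Summed classical genes were at 14849 and 15238 CPM with at least 3 of the 8 and at 18702 and 11886 CPM with none. Summed macrophage genes were at 2977 and 3873 CPM with at least 3 and at 2076 and 9057 CPM with none. NK cell markers were at 54.8 CPM in the ZsG-negative cells with at least 3 and at 140 CPM in those with none, and *Ncr1* was at 0 in both. Melanocyte genes gave no UMI in cells with at least 3 in either library. In cells with none they gave no UMI in the ZsG-negative library and 21.3 CPM in the ZsG-positive one. The 0 in the 21 ZsG-positive cells has an upper limit of 58.6 CPM, so a difference was not detectable.

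Other genes of non-classical monocytes were measured as a list of 25. Of these, 12 were at least 4-fold higher in ZsG-negative Lyz2-class cells and none in ZsG-positive cells, with a median log2 ratio of -1.79. *S1pr5* had a ratio of -5.88, *Pglyrp1*, a peptidoglycan recognition protein, of -4.13 (77.2 and 4.40 CPM), *Slc12a2* of -3.80 and *Eno3*, muscle enolase, of -2.88. *Nr4a1*, the factor these monocytes depend on, was at 1157 and 286 CPM, a ratio of -2.02. *Itgal*, the alpha chain of the integrin LFA-1 that holds patrolling monocytes to the vessel wall, was at 270 and 40.3 CPM, a ratio of -2.74. *Cd36* (1.85), *Lair1* (1.52), *Fcgr4* (1.38), *Bcl2a1d* (0.75) and *Cd274* (0.44), also counted with non-classical monocytes, were higher in ZsG-positive cells. The ratios of the list were thus of both signs.

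Classical monocyte genes were split. Of 17, 5 were at least 4-fold higher in ZsG-negative cells and none in ZsG-positive cells, with a median of -1.11. The largest were *Hp*, haptoglobin (-4.02), *Mgst1* (-3.38), *Ifitm6* (-3.15) and *Chil3* (-2.40). The defining genes *Ly6c2* (1003 and 1113 CPM, 0.15) and *Ccr2* (1001 and 622 CPM, -0.69) lay within 2-fold between the gates, and most cells of both held them. Of 16 macrophage genes, 12 were at least 4-fold higher in ZsG-positive cells, with a median of 4.96, among them *C1qa* at 8.63 and 2019 CPM.

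Of 18 transcription factors of monocytes, 3 were at least 4-fold higher in ZsG-negative cells, *Pou2f2* (-2.16), *Nr4a1* (-2.02) and *Cebpd* (197 and 49.1 CPM), and none in ZsG-positive cells, with a median of -0.55. *Cebpb*, which acts on *Nr4a1* in these monocytes, had a ratio of -1.40 and *Klf2* of -1.53. *Spi1*, *Zeb2* and *Runx3* lay between -0.23 and 0.02.

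Genes that work beside each of the 8 did not share one pattern. Among 15 genes of fractalkine and trafficking, 3 were at least 4-fold higher in ZsG-negative cells, *S1pr5*, *Itgal* and *S1pr4* (-2.01). *Cx3cl1*, which encodes the fractalkine that CX3CR1 binds, gave 0 and 3 UMIs in the Lyz2 class. Among 15 genes of a prostaglandin list, which also holds leukotriene genes, 1 was at least 4-fold higher in ZsG-negative cells. This was *Alox5* (-2.15, -2.90 to -1.34, from 19 and 71 UMIs), a gene of leukotriene and not of prostaglandin synthesis. At least 4-fold higher in ZsG-positive cells were 2, the synthases *Hpgds* (0.96 and 20.2 CPM, 4.39) and *Tbxas1* (18.2 and 101 CPM, 2.47). *Ptgs2*, the inducible cyclooxygenase, was at 406 and 392 CPM (-0.05). Of the transporters and receptors, *Ptger4* had a ratio of -0.64 and *Slco2a1* gave 0 and 2 UMIs.

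*Ace* was found where most genes of the angiotensin system were not. *Agt*, *Agtr1a*, *Agtr1b*, *Agtr2*, *Ren1*, *Mas1*, *Mme* and *Enpep* gave 0 UMIs in the Lyz2 class of both libraries. Of the 6 others with 20 UMIs, none was 4-fold higher in ZsG-negative cells and 2 peptidases were in ZsG-positive cells, *Thop1* (2.47) and *Anpep* (2.32).

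In the TREM family *Trem1* (-2.98) and *Trem3* (-2.97), activating receptors of myeloid cells, were at least 4-fold higher in ZsG-negative cells, as 2 of 6 genes, and *Trem2* of macrophages had a ratio of 1.69. Their shared adaptor *Tyrobp* was at 3632 and 2467 CPM (-0.56). Of 5 adhesion G protein-coupled receptors, *Adgre5*, which encodes CD97, was 4-fold higher in ZsG-negative cells (433 and 58.6 CPM, -2.88), while *Adgre1*, which encodes F4/80, was higher in ZsG-positive cells (1.18). None of 5 genes of the CEACAM group passed 4-fold, and the other sialomucins *Selplg* (-1.05) and *Cd164* (0.87) did not.

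The genes most like the 8 were found by correlation across 3160 Lyz2-class cells at 3000 UMIs, among 7610 genes found in at least 2% of cells. The measure is Pearson's r between a gene and the number of the 8 in a cell, over cells of both libraries after each library was centred on its mean, and it is a description since these cells share library and depth. The highest were *Pou2f2* (r = 0.31), *Pglyrp1* (0.31), *Gngt2* (0.30), *Eno3* (0.29), *Itgal* (0.29), *Grk3* (0.27), *Ear2* (0.25), *Stk10* (0.24), *Adgre5* (0.23) and *Gsr* (0.21). Within the ZsG-negative cells alone *Gngt2* was at 0.64, *Pou2f2* at 0.57 and *Grk3* at 0.51. Within the ZsG-positive cells alone all 10 lay between 0.08 and 0.25. The lowest were *Atp6v0c* (-0.17), *Gapdh* (-0.17), *Lgals1* (-0.16), *S100a10* (-0.14) and *Rps2* (-0.13). Of the defining classical genes, *Ccr2* was at -0.43 and *Ly6c2* at -0.27 within the ZsG-negative cells alone. Within the ZsG-positive cells alone they were at 0.03 and -0.03. Of those 2916 cells only 65 held at least 2 of the 8, so r had little range there. A fall of *Ccr2* and *Ly6c2* in the ZsG-positive library was thus not detectable.

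Genes outside the 8 with the lowest gate ratios, after *S1pr5*, were *Cyp2ab1*, *Nat8l*, *Tiam2*, *Abca6*, *Gjb2*, *Ccdc88c*, *Selp*, *Cyp39a1* and *Ldlrad3*, with ratios between -5.64 and -4.57. *Ccdc88c* (75.8 and 2.78 CPM) and *Ldlrad3* (59.9 and 2.52 CPM) had the most UMIs of them.

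Markers of other cell types moved with the gate as well. Of 9 NK cell markers with 20 UMIs, 5 were at least 4-fold higher in ZsG-negative Lyz2-class cells, with a median log2 ratio of -2.10, and *Ncr1* gave 1 and 6 UMIs. Of 9 T cell markers 2 were, with a median of -1.48. Of 10 conventional DC markers 2 were higher in ZsG-negative cells and 1 in ZsG-positive cells, and all 4 melanocyte genes with 20 UMIs were at least 4-fold higher in ZsG-positive cells. None of 2 B cell markers was 4-fold apart. Of 5 plasmacytoid DC markers 2 were higher in ZsG-negative and 1 in ZsG-positive cells, of 4 neutrophil markers 1 and 1, of 2 platelet markers 1 and none, and of 4 endothelial markers none and 1. In Lyz2-class cells with no UMI of the CD3 genes, *Ncr1*, *Klrb1c*, *Cd79a* or *Siglech*, all 8 genes were still at least 4-fold higher in ZsG-negative cells, and *Cx3cr1* had a ratio of -2.88.

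Across the other classes the 8 genes came apart. In the ZsG-negative library *Ace*, *Treml4*, *Adgre4* and *Nxpe4* were rare outside the Lyz2 class. Of the ZsG-negative UMIs of *Ace*, 86.1% lay in the Lyz2 class, of *Adgre4* 85.4%, of *Treml4* 84.1% and of *Nxpe4* 78.1%, and most of the rest in cells with marks of more than 1 lineage (11.2% to 16.1%). In 2049 ZsG-negative NK cells (median 4644 UMIs) and 1215 T cells (median 7441) each of them gave between 0 and 4 UMIs. In the ZsG-positive library the Lyz2 class stood out less without thinning. Any of *Ace*, *Treml4* and *Adgre4* was found in 7.17% of its cells, against 3.28% of 183 DC1 and 4% of 75 DC2 dendritic cells. These DC1 and DC2 cells were deeper, with medians of 17425 and 13423 UMIs against 9771.5, which raises their shares. At 2000 UMIs a cell each of the genes was in 0 DC1 and 0 DC2 cells. In 2940 Lyz2-class cells they were in 34, 26 and 24. The intervals of the 0 counts reach above the Lyz2-class shares, so a difference was not detectable at that depth. *Adgre4* was at 3.24 CPM in these DC2 cells from 4 UMIs, against 2.87 CPM in the Lyz2 class, while *Ace* gave 0 UMIs in them.

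**Figure D5:**
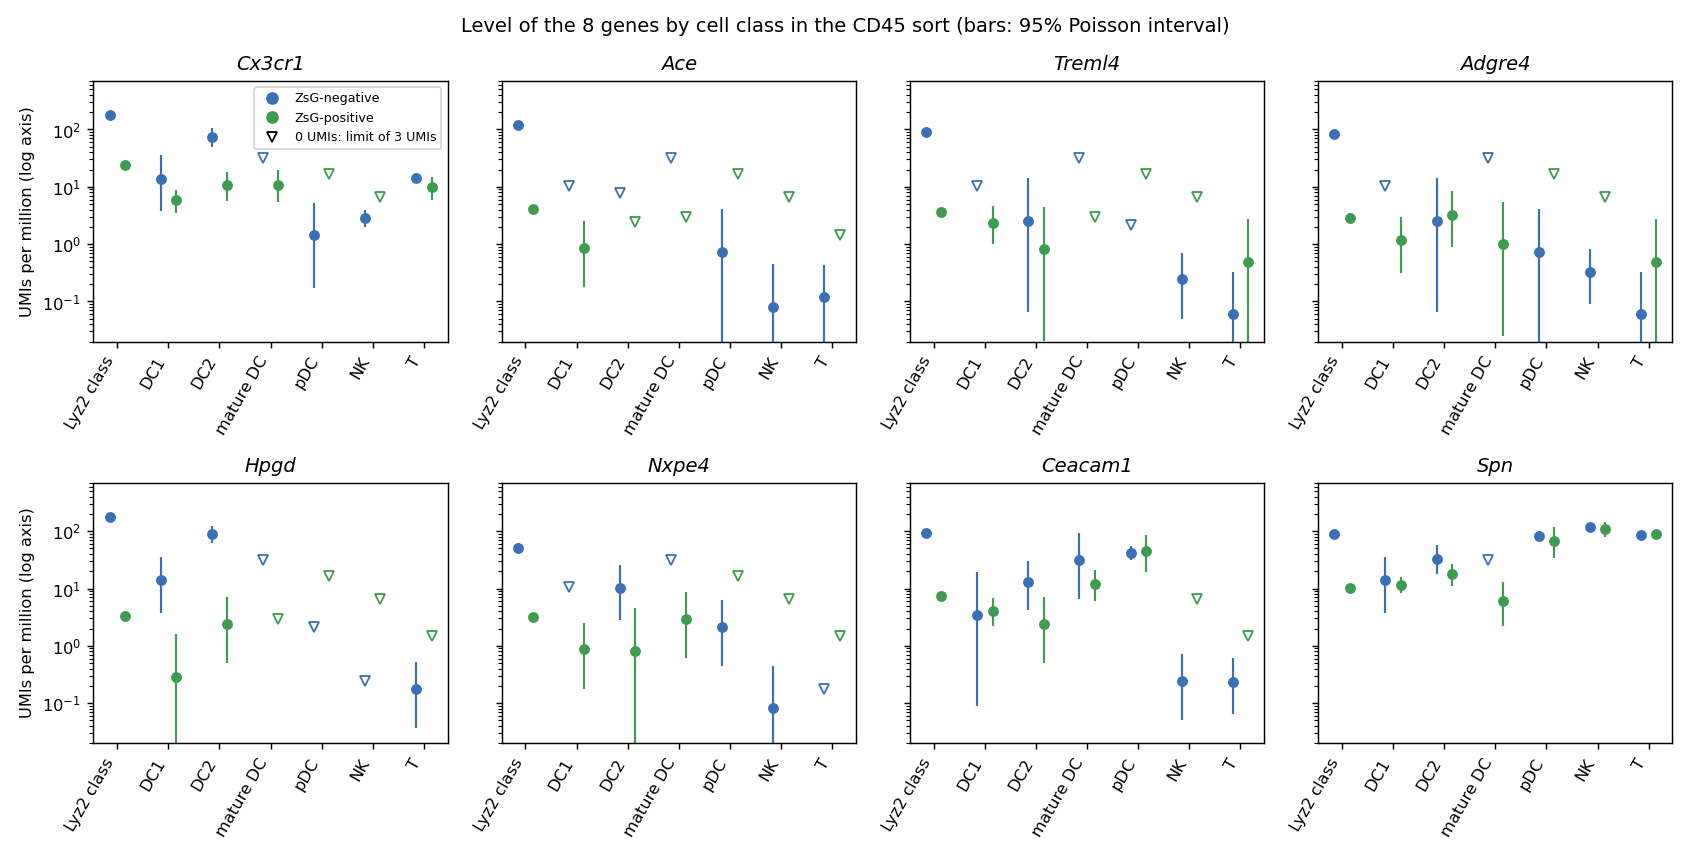
CPM (y, log axis) of each of the 8 genes in 7 cell classes (x) of the ZsG-negative (blue) and ZsG-positive (green) libraries, with 95% Poisson intervals, and an open triangle at the level of 3 UMIs where a class has none. Blue stands above green in the Lyz2 class in every panel, and Spn is at 86.1 and 88.2 in T cells.

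*Hpgd* and *Cx3cr1* were also high in 38 ZsG-negative DC2 cells, called as dendritic cells by *Cd209a* with *Flt3* or *Zbtb46*. The call sets no limit on *Lyz2*, which was at 5942 CPM in them, and 84.2% held *Flt3* and 44.7% *Csf1r*. It thus does not part them cleanly from monocytes. *Hpgd* was at 89.4 CPM in these DC2 cells and at 2.43 CPM in 75 ZsG-positive ones, from 35 and 3 UMIs. The log2 ratio was -5.20 (-7.54 to -3.53). *Cx3cr1* was at 74.1 and 10.5 CPM, a ratio of -2.81 (-3.88 to -1.82). *Ace* gave 0 UMIs in both, which allows up to 7.66 and 2.43 CPM. *Treml4* gave 1 UMI in each library. Of 7 ZsG-negative DC2 cells with both *Cx3cr1* and *Hpgd*, 6 held none of *Ace*, *Treml4* and *Adgre4*. In the Lyz2 class this was so for 26 of 74 such cells. Among all ZsG-negative cells of each class, 2.63% of DC2 cells and 50.8% of Lyz2-class cells held any of *Ace*, *Treml4* and *Adgre4*. These genes were thus rare in DC2 cells as a whole, so the 6 of 7 is not read as particular to cells with both *Cx3cr1* and *Hpgd*. *Hpgd* was at 0 UMIs in 2049 NK cells and 3 UMIs in 1215 T cells.

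In ZsG-negative T cells *Cx3cr1* was found, while *Ace*, *Treml4* and *Adgre4* were rare in the whole class. It was at 14.1 CPM in ZsG-negative and 9.75 CPM in ZsG-positive T cells, a log2 ratio of -0.53 (-1.27 to 0.12), so a gate difference was not detectable at this depth. At 2000 UMIs a cell a *Cx3cr1* UMI was found in 2.47% (1.67 to 3.51) of ZsG-negative T cells, 2.38% of ZsG-positive T cells and 0.733% (0.411 to 1.21) of ZsG-negative NK cells. Of all 1215 ZsG-negative T cells, 4 (0.329%) held any of *Ace*, *Treml4* and *Adgre4*. None of these were among the 133 with a *Cx3cr1* UMI, but at this share a difference was not detectable. The 133 cells had more *Gzmb*, granzyme B, at 2093 against 1475 CPM, and *Zeb2* at 72.0 against 32.2 CPM. They had less *Tcf7*, a factor of naive and memory T cells, at 10.5 against 85.2 CPM. The inhibitory receptor genes *Pdcd1* (313 against 250 CPM) and *Havcr2* (132 against 77.1 CPM) were higher in them as well. So was *Mki67*, a gene of cycling cells, at 331 against 199 CPM, while *Klrg1* was not, at 7.03 against 8.64 CPM. The 133 cells were deeper than the other T cells, with medians of 21538 and 6751 UMIs.

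*Spn* was found in lymphocytes of both gates. It was at 121 CPM in ZsG-negative and 108 CPM in ZsG-positive NK cells, and at 86.1 and 88.2 CPM in T cells, a log2 ratio of 0.04 (-0.20 to 0.26). The ZsG-negative Lyz2 class, at 88.7 CPM, held 4.59% of the ZsG-negative UMIs of *Spn*. *Ceacam1* was at 41.8 and 44.3 CPM in plasmacytoid DC and gave at most 4 UMIs in NK and T cells of either library. The interval of the *Spn* ratio in T cells did not reach that in the Lyz2 class.

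The separate T cell sort, which took CD45+ TCRb+ cells, was not used to choose the genes. Its 2 libraries were pooled, because the names of the matrix and of the libraries order them differently, so no gate is compared. It still held 275 Lyz2-class cells (median 11748 UMIs), and *Cx3cr1* was at 34.3 CPM in them, *Hpgd* at 19.1, *Ceacam1* at 12.6, *Spn* at 11.8, *Adgre4* at 7.81, *Nxpe4* at 6.30, *Ace* at 4.53 and *Treml4* at 3.02. At 3000 UMIs a cell, 6 of 274 cells, 2.19%, held at least 3 of the 8, and 25 of 28 pairs were found together in at least 1 cell and at most 7. The product of their shares was under 1 cell for 26 pairs, so nothing is read from their ratio to it.

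Along C1q the T cell sort could be read only with its libraries together. From 123 cells without C1q to those with at least 3 C1q UMIs, *Hpgd* went from 43.8 to 3.89 CPM, a log2 difference of -3.49 (-4.69 to -2.47), and *Adgre4* from 21.9 to 0.433 CPM (-5.66, -11.01 to -3.07), the latter from 1 UMI. Few cells carried these levels, since the top 10 cells held 80.0% of the *Hpgd*, 67.7% of the *Adgre4* and 51.5% of the *Cx3cr1* UMIs. *Cx3cr1* went from 53.7 to 27.3 CPM, a difference of -0.98 (-1.49 to -0.47). With both libraries of the CD45 sort added together, *Cx3cr1* went from 53.4 to 26.2 CPM (-1.03, -1.20 to -0.85) and *Hpgd* from 49.4 to 1.60 (-4.95, -5.47 to -4.47). Of the 446 *Cx3cr1* UMIs in the summed CD45 cells without C1q, 364 came from ZsG-negative cells. Within the ZsG-positive CD45 library alone the *Cx3cr1* difference had the other sign, 1.03. Adding libraries together thus mixes gate with C1q, and in the T cell sort the 2 cannot be told apart. In the 1265 T cells of the T cell sort *Cx3cr1* was at 19.7 CPM, in 8.70% of cells, and *Spn* at 98.0 CPM. *Ace*, *Treml4* and *Nxpe4* gave 0 UMIs in these T cells, and *Hpgd* and *Adgre4* gave 1 each.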

How the data were processed

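For each cell and gene the deposited files give a UMI count, which the authors obtained with Cell Ranger from 10x Genomics 3′ libraries. Version 6.1.2 and mm10 are named in the submitters' processing notes, while the CD45 file's own header has 7.0.0. No source used here says if depth was evened when the libraries were joined. The 8 genes and all gene lists were chosen with earlier results of these data known.

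Cells with at least 1000 and under 6000 genes and under 10% mt- UMIs were kept, and doublets were not called. Classes needed these UMIs: at least 2 of the CD3 genes and none of *Ncr1* and *Klrb1c* (T), at least 2 of *Ncr1* and *Klrb1c* with at most 1 of CD3 (NK), at least 3 of *Siglech*, *Ccr9* and *Klk1* (pDC), at least 2 of *Xcr1* and *Clec9a* (DC1), 1 of *Cd209a* with 1 of *Flt3* and *Zbtb46* (DC2), or at least 5 of *Lyz2* alone. Lymphoid or pDC cells with 5 *Lyz2* UMIs, and cells of more than 1 lineage, were called mixed. The Lyz2 class is a range cut on *Lyz2* and not a cell type. UMIs were summed per library and class and divided by all UMIs of those cells and multiplied by 1000000 (CPM). The 95% intervals are Poisson for levels, Clopper-Pearson for shares and conditional on the summed UMIs for ratios, all exact and for counting error only. With 1 library per gate there is no test of gates. A count of 0 is read against a floor of 3 UMIs. Shares and detection together were taken after thinning cells at random (seed 1) to 3000 UMIs, or 2000 across all classes. Ratios over all genes add 0.5 UMIs to each sum and need 20 UMIs. Named from each list were up to 4 genes with the largest ratio of either sign and its defining markers. The 10 most and 5 least alike genes and the 10 lowest ratios outside the 8 were also named, and a few more genes were named after their values were seen. Depth was 47537541 and 56510578 UMIs in the ZsG-negative and ZsG-positive library. Gene positions are from GENCODE on GRCm38, the build of mm10, and promoters are from RefSeq. The work used scipy 1.17.1 and numpy 2.4.6 in Python 3.11.15 and, for TMM factors as an alternative scaling, edgeR 4.0.16 in R 4.3.3. The interval code was tested on simulated Poisson sums, without spread between cells, and the thinning code on simulated cells. Values of a few list genes are not reported here.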

Additional observations from a re-analysis of the deposited data

Results flagged for a closer look

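The *Cx3cr1* gate ratio ran one way in the Lyz2 class and the other way in 2 other classes of the same libraries. In mixed cells the log2 ratio, ZsG-positive over ZsG-negative, was 0.64 (0.28 to 0.99) from 119 and 158 UMIs, and in cells of no class it was 1.30 (0.17 to 2.56) from 9 and 28 UMIs, against -2.91 in the Lyz2 class. The difference between classes was not tested, since each gate is 1 library.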

How the results depend on the processing

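No paired analysis was possible because each gate of the CD45 sort is 1 library, and no library could be left out. No result changed direction under the alternatives run. The *Cx3cr1* log2 ratio stayed within its interval under 10 of 15 alternatives. It was -1.003 as a difference of means of log-normalized values over cells, a scale on which none of the 8 genes (0) passed 4-fold. Alternatives chosen after seeing the data gave -3.85 in cells with no C1q UMI, -2.37 in cells with no UMI of the other 7 genes at 3000 UMIs a cell (on all UMIs of those cells, -2.55 on the thinned ones), -1.22 with mixed cells added and -3.79 without ZsG-positive cells with 5 or more *Cx3cr1* UMIs. The last keeps such cells in the ZsG-negative library, so it had to lie further from 0. Without the ZsG-positive cells rich in *Cx3cr1*, its difference along C1q in that library was 0.43 in place of 1.03. Of the 8 genes 7 passed 4-fold with mixed cells added, and all 8 under the other alternatives that keep a ratio. The share of ZsG-negative cells with at least 3 of the 8 was 19.5% at 2000 UMIs, 52.0% without thinning and 9.28% with mixed cells added, and 45.5% held at least 2 and 18.9% at least 4. The ZsG-positive share was 0.445% under 5% mt- UMIs, 0.238% at 2000 UMIs, 2.21% without thinning and 1.43% with no C1q UMI, and 2.23% held at least 2 and 0.274% at least 4. The cause was not tested. Scaling by TMM moved all ratios by 0.07. The background of 2.79% was 15.1% with no minimum of UMIs and 1.83% with at least 100 UMIs. In DC2 cells depth leaves the intervals several log2 units wide.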

Other observations

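In the ZsG-negative Lyz2 class, 14 cells held a UMI of *Cd209a*, a DC2 marker, at 3000 UMIs a cell. *Cx3cr1* was at 52.5 CPM in them and at 187 CPM in the other 230, and *Hpgd* at 59.1 and 187 CPM. *Treml4* gave no UMI in these 14 cells and was at 97.0 CPM in the others.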
